A study of Mus musculus with 8 samples.

Results

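The genes described here are the ligands, receptors and binding proteins of the insulin-like growth factor (IGF) system: Igf1, Igf2, Igf1r, Igf2r, Igfbp2, Igfbp3, Igfbp4, Igfbp5, Igfbp6 and Igfbp7. They were chosen by name, with earlier results of these data known, and all 10 were found among the 55359 gene identifiers of the count table. They were measured by RNA-seq of poly(A) RNA in MLO-Y4, an osteocyte-like mouse line described as wild-type. Osteocytes are the cells that live enclosed in mineralised bone. MLO-Y4 was derived from long bones of mice carrying the simian virus large T antigen under the osteocalcin promoter, a transgene that this description leaves aside. In all 8 libraries cells grew on collagen I-coated dishes in medium with bovine serum and had been seeded 72 h before the irradiation. One group of 4 libraries came from non-irradiated cells. The other 4 came from cells irradiated for 1 min with a pulsed Er:YAG laser, an infrared dental laser of 2940 nm, at 6 J/cm2 from a distance of 25 cm in 35-mm dishes, with the culture medium removed beforehand. RNA was taken 6 h after irradiation. The labels do not say whether the medium was also removed from non-irradiated dishes, nor whether the libraries of a group came from separate cultures, so the p-values rest on a spread between samples that may be only technical.

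IGF1 and IGF2 are secreted growth factors, stored in quantity in bone matrix, that signal through the tyrosine kinase receptor encoded by Igf1r. The receptor recruits docking proteins of the IRS and Shc families, which feed the PI3K-AKT-mTOR and MAPK pathways. Igf2r encodes the cation-independent mannose 6-phosphate receptor, which removes IGF2 from the surroundings and sorts enzymes to lysosomes. The binding proteins (IGFBPs) hold IGFs outside the cell. IGFBP4 is known mainly for keeping IGFs from the receptor, IGFBP5 binds bone mineral and matrix, IGFBP6 prefers IGF2, and IGFBP7 binds IGFs weakly.

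Libraries held between 43786209 and 51734166 counts, and take their names from the table's column numbers: C5, C6, C7 and C8 were not irradiated, and L5, L6, L7 and L8 were. Levels are CPM, each library's counts scaled to a common total and adjusted by TMM. A log2 fold change above 0 stands for more mRNA after irradiation. Of the osteocyte markers, Pdpn, Gja1 and Mmp14 rose 1.25-, 1.27- and 1.21-fold and Phex did not pass the test (edgeR adjusted p = 0.559), while Sost, Mepe and Fgf23, which mark mature osteocytes, had 0 counts in each of the 8 libraries and Dmp1 had 21 counts over the non-irradiated and 61 over the irradiated libraries. Among the 6 macrophage markers, Csf1r rose 1.85-fold (edgeR adjusted p = 1.06e-07) and the list's summed level ran from 17.4 to 20.9 CPM in non-irradiated and from 28.1 to 31.4 CPM in irradiated libraries, but Cd68, the other member tested, lay lower in every irradiated library without passing the test (4.45 ± 0.459 and 3.52 ± 0.394 CPM, log2 fold change -0.34, edgeR adjusted p = 0.193). Lyz2 had 7 and 4 counts over the groups, and Ptprc, Adgre1 and Itgam had 0 in all 8 libraries. Of the 3 chondrocyte markers Sox9 rose 1.55-fold (edgeR adjusted p = 2.29e-10), Acan had 0 counts throughout, Col2a1 did not pass the test, and the summed level was 139 to 143 against 209 to 227 CPM. The part of these changes in the results on the IGF genes was not tested. Summed levels of the endothelial, adipocyte, muscle and epithelial marker lists stayed under 1 CPM in every library; Vwf and Fabp4 were the members of these lists that could be tested, and neither passed (edgeR adjusted p = 0.694 and 0.693).

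Over all genes, 2270 of 15164 tested passed the threshold of an adjusted p under 0.05 (15.0%), of which 1247 rose (8.22%) and 1023 fell (6.75%), by edgeR's quasi-likelihood test with p-values adjusted after Benjamini and Hochberg. With library totals alone setting the scale, 1050 were higher and 1345 lower. Of the 10 IGF genes, 6 had enough counts to be tested. Of these Igfbp5 rose (1 of 6, against 8.22% of all genes), Igfbp4 fell (1 of 6, against 6.75%), and Igf1r, Igf2r, Igfbp6 and Igfbp7 did not pass the test. The median log2 fold change of the 6 was -0.036, beside -0.007 over all tested genes. In bulk cultures such as these, fewer cells of a type and less RNA per cell cannot be told apart.

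The ligands were at or near 0. Igf1 (ENSMUSG00000020053.19) had 0, 0, 4 and 0 counts in C5 to C8 and 0, 12, 0 and 4 counts in L5 to L8. Igf2 (ENSMUSG00000048583.17) had 2 counts in C5 and 0 in the other 7 libraries. Counts in this table often come in steps of about 4, so the Igf1 values may stand for very few sequenced fragments. Both genes lay below the filter on low counts, and with a filter of only 1 count in any library edgeR gave adjusted p = 0.626 for Igf1 and 0.431 for Igf2. A change in ligand mRNA was therefore not detectable at this depth. H19, the non-coding neighbour of Igf2 that shares its imprinted control, had 3 counts over the non-irradiated and 13 over the irradiated libraries, and the antisense gene Igf2os had 0 in all 8.

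Igfbp2 and Igfbp3 had 0 counts in each of the 8 libraries. A count of 0 allows up to 3 counts, which is 0.0685 CPM in L7, the smallest library, and 0.274 CPM if a fragment adds 4 counts. These limits cover counting error only. Igfbp3 encodes the main IGF carrier of blood, and Igfbp1, its neighbour on chromosome 11, also had 0 counts in every library. On chromosome 1 the RefSeq gene table places Igfbp2 directly beside Igfbp5, so Igfbp2, at 0 counts, adjoins the member that rose.

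Sequences upstream of Igfbp5 and Igfbp4 are shown because these were the members that changed. They are the 250 bases before each RefSeq start site on GRCm38.p6, a build other than the GRCm39 named in the submitters' processing notes. Igfbp5 lies at chr1:72874866-72875115 on the minus strand and Igfbp4 at chr11:99040994-99041243 on the plus strand. Each is printed 5′ to 3′ along its gene, and capitals mark the motif letters found.
Igfbp5: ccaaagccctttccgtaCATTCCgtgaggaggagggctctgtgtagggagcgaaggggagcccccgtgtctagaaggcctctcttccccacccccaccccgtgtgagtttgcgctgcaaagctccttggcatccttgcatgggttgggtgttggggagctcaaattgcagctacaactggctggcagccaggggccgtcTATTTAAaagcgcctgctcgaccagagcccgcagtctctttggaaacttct
Igfbp4: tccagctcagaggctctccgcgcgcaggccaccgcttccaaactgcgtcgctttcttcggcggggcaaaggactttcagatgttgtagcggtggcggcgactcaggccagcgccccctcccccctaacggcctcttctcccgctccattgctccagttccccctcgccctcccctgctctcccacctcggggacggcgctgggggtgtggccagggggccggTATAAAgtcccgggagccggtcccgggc
Searched on both strands were the TATA box as TATAAA, its looser form TATTTAA, the CCAAT box by its own letters, the GC box as GGGCGG, the AP-1 site as TGANTCA, the TEAD core as CATTCC, the FOXO site as GTAAACA and the E-box as CACGTG. Matches in these windows did not overlap each other, and the choice of motifs, with the looser TATA form and the TEAD core, was settled after the Igfbp5 sequence had been read. Igfbp4 held TATAAA, its first base at -28 from the start site, a motif found in 12.4% of all 32851 RefSeq windows of this length. Igfbp5 held TATTTAA at -51 (4.18% of windows) and CATTCC at -233 (12.6% of windows). The other letters were in neither window. The Igfbp5 window was 58.8% G or C and the Igfbp4 window 69.2%, beside a median of 52.4% over all windows. Of the tested members not called, Igf1r held the GC box 2 times, Igfbp7 4 times and Igf2r 3 times, the last with 2 E-boxes, and Igfbp6 held 2 CCAAT boxes and a TATA box on the other strand. The GC box occurred in 32.7%, the CCAAT box in 33.8% and the E-box in 6.02% of all windows. Of the members below the filter, Igf1, Igf2 and Igfbp2 also held matches, the latter pair over several start sites, and Igfbp3 held none.

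Igfbp5 (ENSMUSG00000026185.9) was the member that rose. Its levels were 13 CPM in C5, 13.1 in C6, 12.4 in C7 and 11.5 in C8, against 22.2 in L5, 22.6 in L6, 22 in L7 and 22.2 in L8. The groups did not overlap, and the irradiated libraries lay within 1 CPM of each other. The mean went from 12.5 ± 0.715 to 22.3 ± 0.27 CPM (SD, n = 4 per group), a 1.78-fold rise with a 95% interval of 1.59 to 1.99 (log2 fold change 0.83, SE 0.077, edgeR adjusted p = 2.05e-07). By log2 fold change it ranked 55 among the 1247 genes that rose, and the median absolute log2 change of all called genes was 0.25. The call held under all 16 alternatives, with log2 fold changes of 0.80 to 0.86.

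Igfbp4 (ENSMUSG00000017493.13) was the member that fell, and the most abundant per kb of transcript. Its level stood at 624.8 CPM in C5, 596.4 in C6, 650.6 in C7 and 633.7 in C8. In irradiated cells it was 530.4 CPM in L5, 554.6 in L6, 545.6 in L7 and 570.1 in L8. Every irradiated library lay below every non-irradiated one, though by a small margin: the highest irradiated value, in L8, was close to the lowest non-irradiated value, in C6. The mean dropped from 626.4 ± 22.7 to 550.2 ± 16.6 CPM (SD, n = 4), 12.2% lower as fitted, with a 95% interval of 0.839 to 0.919 for the ratio (log2 fold change -0.19, SE 0.032, edgeR adjusted p = 0.000299). This call too held under all 16 alternatives (log2 fold change -0.21 to -0.17).

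**Figure D1:**
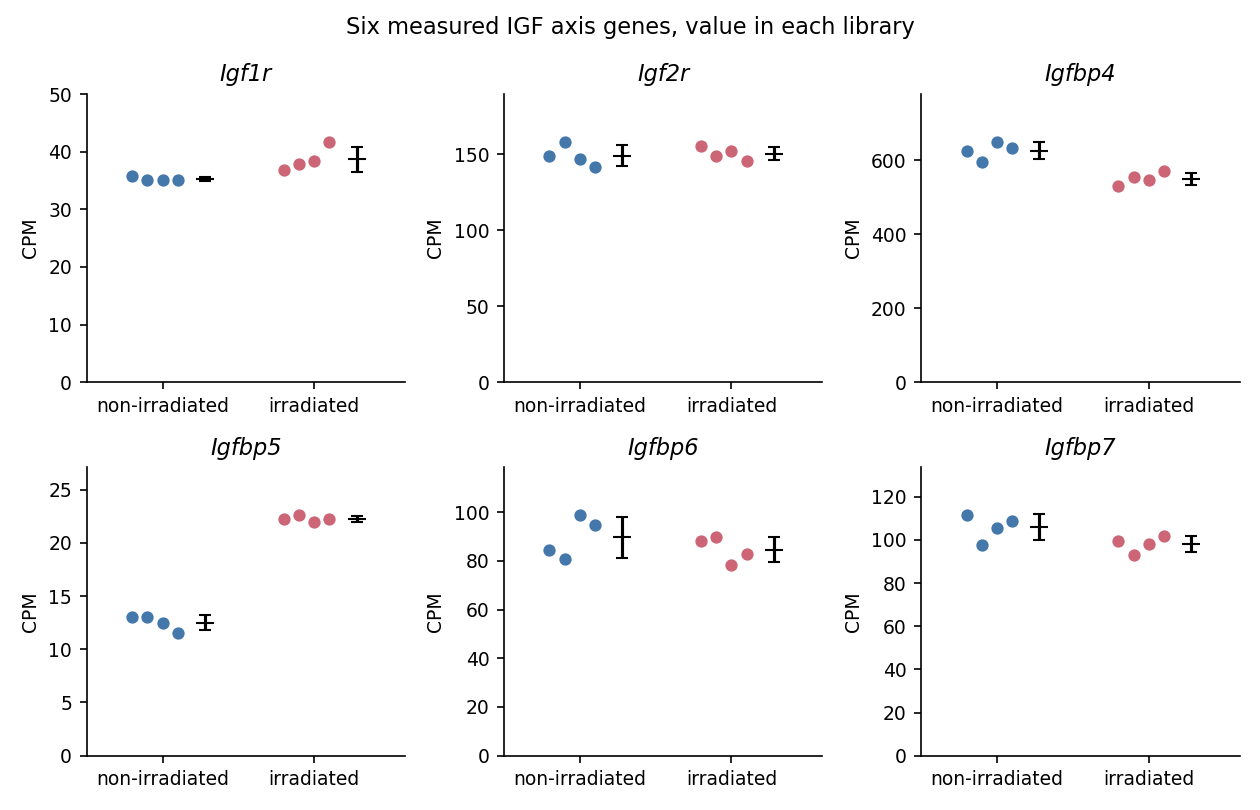
CPM (linear axis from 0) of the 6 IGF genes with enough counts to be tested, with a point for each of the 4 non-irradiated (blue) and 4 irradiated (red) libraries and the mean with SD in black. The groups are apart in Igfbp5 (12.5 against 22.3 CPM), Igfbp4 (626.4 against 550.2 CPM) and, by little, Igf1r (35.3 against 38.7 CPM), and overlap in the other panels.

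The binding protein genes Igfbp6 and Igfbp7 did not pass the test. Igfbp6 (ENSMUSG00000023046.7) ranged from 80.7 CPM in C6 to 98.8 in C7 among non-irradiated and from 78.2 in L7 to 89.6 in L6 among irradiated libraries. Its groups overlapped widely (log2 fold change -0.08, 95% interval -0.21 to 0.05, edgeR adjusted p = 0.425). Igfbp7 (ENSMUSG00000036256.14) stood at 111.5, 97.5, 105.5 and 108.6 CPM in C5 to C8 and at 99.3, 92.9, 98 and 102 CPM in L5 to L8. Only C6 among the non-irradiated libraries reached into the irradiated range (log2 fold change -0.11, 95% interval -0.21 to -0.02, edgeR adjusted p = 0.118). Without C6 Igfbp7 passed the threshold (log2 fold change -0.15, edgeR adjusted p = 0.019). In the RefSeq table Igfbp7 overlaps Polr2b, an RNA polymerase subunit gene at 146 ± 7.98 and 152 ± 4.21 CPM, and whether counting used strand is not given in the sources used here.

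Neither receptor gene passed the test. Igf1r (ENSMUSG00000005533.11) was at 35.7, 35.1, 35.1 and 35.2 CPM in C5 to C8 and at 36.9, 37.8, 38.3 and 41.8 CPM in L5 to L8. All irradiated libraries were above all non-irradiated ones, with L8 the highest, but the difference did not pass (log2 fold change 0.13, SE 0.056, 95% interval 0.02 to 0.25, edgeR adjusted p = 0.126). Without L8 its log2 fold change was 0.09 (edgeR adjusted p = 0.352). Groups free of overlap, as in Igf1r, Igfbp4 and Igfbp5 (3 of 6), were found in 18.5% of all tested genes, with irradiated libraries higher in 9.76% and lower in 8.78%. Igf2r (ENSMUSG00000023830.15) stood between 141.8 CPM in C8 and 158.4 in C6 without irradiation and between 145.7 in L8 and 155.2 in L5 with it. The irradiated values lay inside the non-irradiated range (log2 fold change 0.01, 95% interval -0.07 to 0.09, edgeR adjusted p = 0.883), and the sign turned with library totals alone (-0.01) and without C8 (-0.011) or L5 (-0.003). Airn, the imprinted antisense transcript that overlaps Igf2r, was at 2.19 ± 0.991 and 2.58 ± 0.278 CPM (edgeR adjusted p = 0.667), and its reads cannot be told apart from those of Igf2r without strand.

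Levels of different members can be compared only per length of transcript. Per kb of the longest annotated transcript, non-irradiated cells held 163.5 ± 5.92 CPM per kb of Igfbp4, 88.2 ± 5.02 of Igfbp7, 80.7 ± 7.62 of Igfbp6, 16.8 ± 0.777 of Igf2r, 3.09 ± 0.0282 of Igf1r and 2.08 ± 0.119 of Igfbp5 (SD, n = 4). Igfbp7 and Igfbp6 overlapped across libraries, and the other neighbours in this order did not. In irradiated cells the order was the same at the top, with 143.6 ± 4.33 of Igfbp4, 81.7 ± 3.18 of Igfbp7, 76.1 ± 4.68 of Igfbp6 and 16.9 ± 0.462 of Igf2r. Igfbp5 (3.71 ± 0.0449 CPM per kb) and Igf1r (3.39 ± 0.187 CPM per kb) overlapped there. The place of Igf2r depends on the length used. With the median annotated transcript Igf2r came to 185.7 CPM per kb in non-irradiated cells, second to Igfbp4 at 820.4. The overlap of Igfbp5 and Igf1r in irradiated cells also depends on the length. With the median transcript Igf1r ran from 18.46 to 20.91 and Igfbp5 from 4.268 to 4.396 CPM per kb in these cells.

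The make-up of the binding protein mRNAs shifted little, and Igfbp5 stayed a small part of it. Igfbp4 CPM divided by Igfbp5 CPM gave 48 in C5, 45.7 in C6, 52.3 in C7 and 55 in C8, against 23.9 in L5, 24.5 in L6, 24.9 in L7 and 25.6 in L8. The ratio was thus 50.3 ± 4.2 without and 24.7 ± 0.741 with irradiation (SD, n = 4). No library of one group came near the other. This ratio is not per length of transcript, so only its change between the groups can be read. As a share of the summed IGFBP4 to IGFBP7 mRNA per kb of longest transcript, Igfbp5 went from 0.625% ± 0.0608 to 1.21% ± 0.0194 and Igfbp4 from 48.9% ± 0.73 to 47.1% ± 1.05. Igfbp6 made up 24.1% ± 1.29 and 24.9% ± 1.41, and Igfbp7 26.4% ± 1.08 and 26.8% ± 1.02. The sum itself was 334.4 ± 16.2 CPM per kb without and 305.1 ± 5.76 with irradiation. The shares depend on the length used: with the median annotated transcript Igfbp4 made up 82.5% ± 0.414 and 81.4% ± 0.64, Igfbp7 9.18% ± 0.394 and 9.56% ± 0.396, Igfbp6 8.1% ± 0.48 and 8.6% ± 0.582, and Igfbp5 0.245% ± 0.0216 and 0.489% ± 0.0115. The group with the higher mean share was the same with both lengths for each of the 4 genes. These ratios and sums follow from the values above and carry no test of their own.

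**Figure D2:**
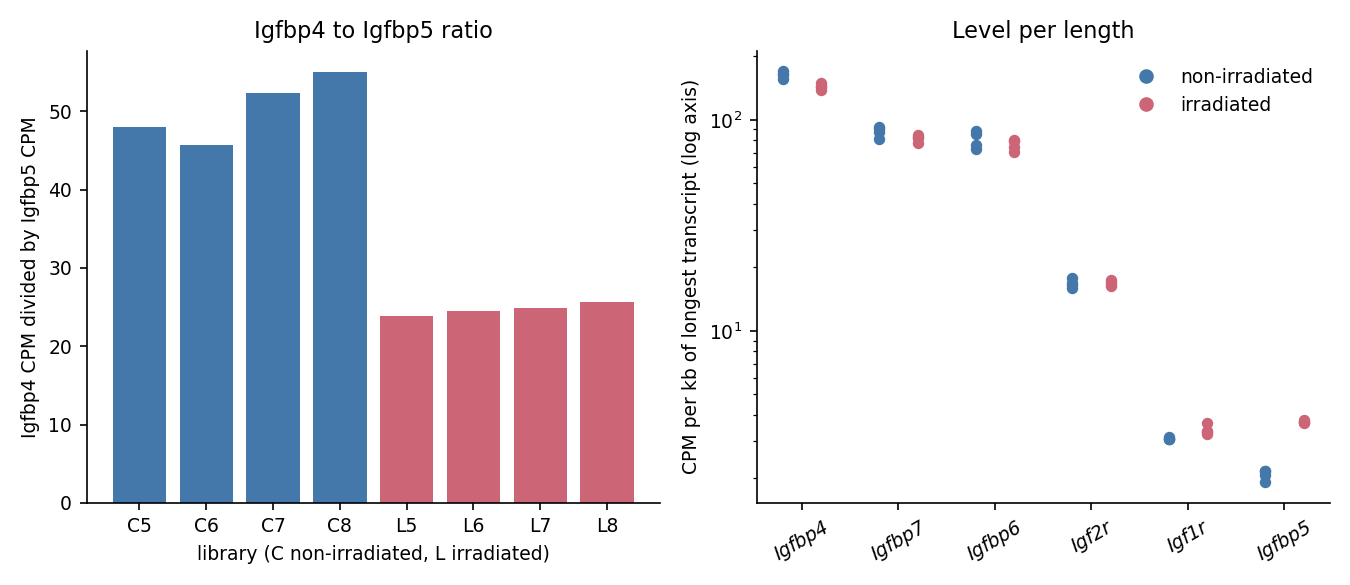
Left, Igfbp4 CPM divided by Igfbp5 CPM in each library (bars from 0; C non-irradiated, L irradiated), between 45.7 and 55 in the non-irradiated and between 23.9 and 25.6 in the irradiated libraries. Right, CPM per kb of longest transcript (log axis) of the 6 tested IGF genes with a point per library, running from Igfbp4 at 163.5 to Igfbp5 at 2.08 CPM per kb in non-irradiated cells.

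The genes whose log2 CPM over the 8 libraries was most like that of Igfbp5, among 11153 genes of at least 1 CPM, were Mtmr10 (Pearson r = 0.995), Gprc5a (0.995) and Ptgs1 (0.993). For Igfbp4 they were Tkt (0.993), Cd248 (0.987) and Angptl4 (0.983), and for Igfbp7 Cdc42ep4 (0.983), Fbxw4 (0.98) and Scrn1 (0.971). The 8 points fall into the 2 groups, so r includes the difference between the groups. Mtmr10, a myotubularin-related protein gene, went from 52.7 ± 1.69 to 80.1 ± 2.08 CPM, and Ptgs1, the constitutive cyclooxygenase gene, from 381 ± 12 to 536 ± 4.68 CPM. Tkt, the transketolase gene, went from 350 ± 15.8 to 297 ± 9.35 CPM and Cd248, a stromal membrane protein gene, from 436 ± 31.8 to 341 ± 10 CPM.

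Other genes of the pathway were taken from 6 lists with 88 genes in all, of which 70 were tested. Of the tested genes 15 rose and 9 fell (34.3%, against 15.0% of all genes). The lists were chosen with earlier results of these data known, so their shares of called genes are not independent evidence. The shares of all genes set beside them, here and below, were not matched for expression level. Small changes pass the test more easily in abundant genes. Among 13 genes that handle IGFs outside the cell, 6 were tested, 2 rose (33.3%, against 8.22% of all genes) and none fell, with 4 not past the test. Pappa encodes pappalysin, a protease known to cleave IGFBP4 and IGFBP5. It was low, at 1.77, 1.05, 2.28 and 1.83 CPM in C5 to C8 and 4.64, 2.08, 2.96 and 3.17 CPM in L5 to L8. L6 lay within the non-irradiated range and L5 was the highest (1.85-fold higher, 95% interval 1.26 to 2.73, edgeR adjusted p = 0.0287). The Pappa call was lost when C5, C6, C8, L5, L7 or L8 was left out (largest adjusted p = 0.147, without L5) and with limma-voom (0.0706), and the list had 1 member higher without C5, C8, L5, L7 or L8. Htra1, a secreted serine protease gene, rose 1.09-fold from 190.8 ± 4.06 to 208.4 ± 6.21 CPM (edgeR adjusted p = 0.0129). Stc2, whose product inhibits pappalysin, gave 2.84 ± 0.538 and 2.98 ± 0.476 CPM (edgeR adjusted p = 0.875), and Igfals, Igfbpl1 and Pappa2 had 4, 0 and 0 counts over all 8 libraries.

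Among 10 genes of the Igf2 locus and of IGF mRNA binding, 4 were tested and 2 rose, against 8.22% of all genes. Igf2bp2, which encodes an RNA-binding protein named for its binding of Igf2 mRNA, rose 1.1-fold from 194.7 ± 3.82 to 213.5 ± 4.94 CPM (edgeR adjusted p = 0.00747). Hmga2, a chromatin protein gene known to activate Igf2bp2, rose 1.15-fold from 372.2 ± 31.7 to 429.1 ± 13.9 CPM (edgeR adjusted p = 0.013). C6 had the highest non-irradiated Hmga2 value (415.1 CPM) and overlapped with L6, and the Hmga2 call was lost without C8 (adjusted p = 0.0556), which left 1 member higher. Igf2bp1 and Igf2bp3, relatives of Igf2bp2, were below the filter.

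Receptor docking and feedback genes changed in both directions: of 17 listed, 14 were tested, 4 rose, 5 fell and 5 did not pass (64.3% called, against 15.0% of all genes). The median log2 fold change was -0.077. Irs2, a docking protein gene of the IGF1 and insulin receptors, stood at 6.5, 5.22, 4.98 and 5.83 CPM in C5 to C8 and 3.97, 3.08, 3.26 and 3.78 CPM in L5 to L8. The groups did not overlap, and the fall was 37.5% (95% interval of the ratio 0.497 to 0.787, edgeR adjusted p = 0.00578). Shc1, the other main adaptor gene, fell by a smaller factor from 287.7 ± 4.36 to 252.9 ± 3.35 CPM (log2 fold change -0.19, edgeR adjusted p = 0.000149). Grb14, an adaptor gene that restrains these receptors, rose 1.18-fold (edgeR adjusted p = 0.00377) and Cbl, a ubiquitin ligase gene, 1.2-fold (edgeR adjusted p = 0.0166), the latter with C6 at 92.4 CPM inside the irradiated range. Cbl lost its call without C5, C7, C8 or L5 (adjusted p up to 0.0545, without C7). The other called members, named after their values were seen, were Ptpn1 and Ptpn11, phosphatase genes that rose, and Grb2, Mdm2 and Rack1, which fell. Rack1 lost its call with C5, C7, C8, L5, L7 or L8 left out, with limma-voom and with a filter of 1 count (largest adjusted p = 0.167, without C8). The close relatives Irs1 and Insr did not pass: Irs1 gave 12.3 ± 1.84 and 10.1 ± 1.5 CPM (edgeR adjusted p = 0.131) and Insr 36.4 ± 2.45 and 39.3 ± 2.12 CPM (edgeR adjusted p = 0.267).

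**Figure D3:**
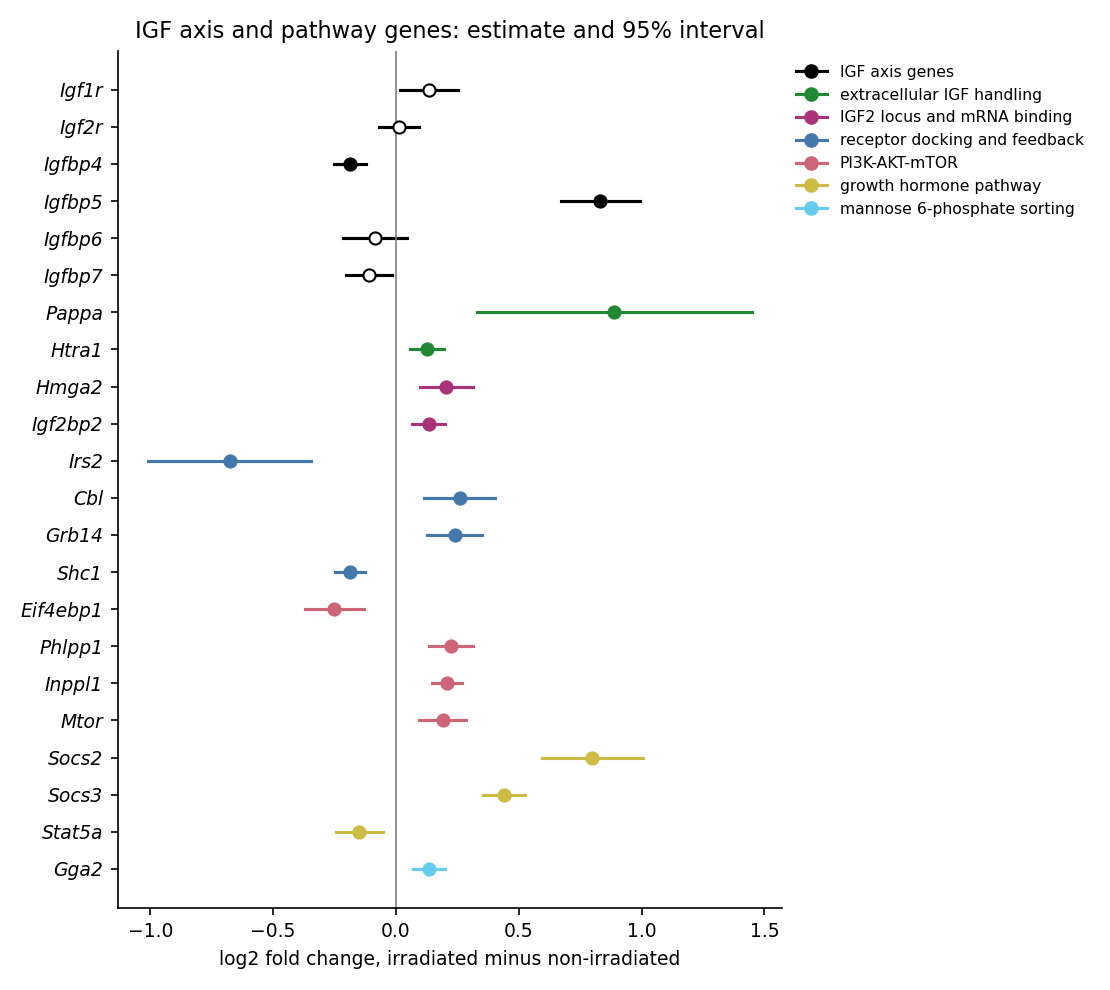
Log2 fold change (irradiated minus non-irradiated) with its 95% interval for the 6 tested IGF genes (black) and 16 pathway genes coloured by list; filled circles passed an adjusted p under 0.05 and open circles did not. Igfbp5 (0.83) lies far to the right of the other IGF genes, beside Pappa (0.89) and Socs2 (0.80), and Irs2 (-0.68) farthest to the left.

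In the PI3K-AKT-mTOR list 31 of 32 genes were tested, 4 rose, 3 fell and 24 did not pass (22.6% called, against 15.0% of all genes), with a median log2 fold change of -0.001. Inppl1 and Phlpp1, genes of phosphatases that act against PI3K and AKT, rose 1.15- and 1.17-fold (edgeR adjusted p = 5.25e-05 and 0.00105), and Mtor, the kinase gene, rose 1.14-fold from 106.4 ± 3.96 to 121.5 ± 7.73 CPM (edgeR adjusted p = 0.0069). Eif4ebp1, a translation repressor that mTOR inactivates, fell from 64.1 ± 3.27 to 53.8 ± 4.01 CPM (log2 fold change -0.25, edgeR adjusted p = 0.00471). Rps6kb1 (higher), Akt2 and Rheb (lower), named after their values were seen, completed the calls. Akt2 was lost without any library other than C5, Rps6kb1 without any other than C6, and Rheb without C5, C8, L5, L7 or L8, with largest adjusted p of 0.181, 0.154 and 0.0773. Akt2 was also lost with limma-voom (adjusted p = 0.0721) and a filter of 1 count (0.054), and Rps6kb1 with library totals alone (0.0875), upper-quartile scaling (0.0559) and limma-voom (0.0512). The number lower was 5 with DESeq2 or upper-quartile scaling, 6 with library totals alone and 1 without C8, L5, L7 or L8.

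Of 9 genes of the growth hormone pathway, the hormonal driver of IGF1 in liver and bone, 8 were tested, 2 rose and 1 fell (37.5% called, against 15.0% of all genes). Socs2, a feedback inhibitor of the growth hormone receptor, was at 10.3, 10.2, 9.59 and 8.45 CPM in C5 to C8 and 14.8, 16.3, 18.4 and 17.8 CPM in L5 to L8. The groups were well apart (1.74-fold higher, 95% interval 1.51 to 2.01, edgeR adjusted p = 9.38e-06). Socs3, a feedback inhibitor of cytokine receptors, rose 1.36-fold from 118.2 ± 7.04 to 160.5 ± 3.77 CPM (edgeR adjusted p = 2.95e-07). Socs1 and Cish, also on this list, did not pass: Socs1 gave 21.6 ± 2.29 and 23.6 ± 1.17 CPM (edgeR adjusted p = 0.333) and Cish 4.38 ± 1.02 and 4.71 ± 0.426 CPM (edgeR adjusted p = 0.77). Stat5a, a transcription factor gene downstream of the receptor, fell from 76.1 ± 2.34 to 68.6 ± 2.77 CPM (edgeR adjusted p = 0.0307), a call lost with any of C5, C7, C8, L5, L7 and L8 left out (largest adjusted p = 0.113, without L5). The receptor gene Ghr gave 40.5 ± 1.54 and 37.9 ± 2 CPM (edgeR adjusted p = 0.307). Of 7 genes of mannose 6-phosphate sorting, the lysosomal task that Igf2r shares with M6pr, only Gga2, an adaptor gene that binds the receptors' tails, passed: it rose 1.1-fold from 221.4 ± 2.03 to 243 ± 4.87 CPM (edgeR adjusted p = 0.00445). That is 14.3% of the list, near the 15.0% of all genes.

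**Figure D4:**
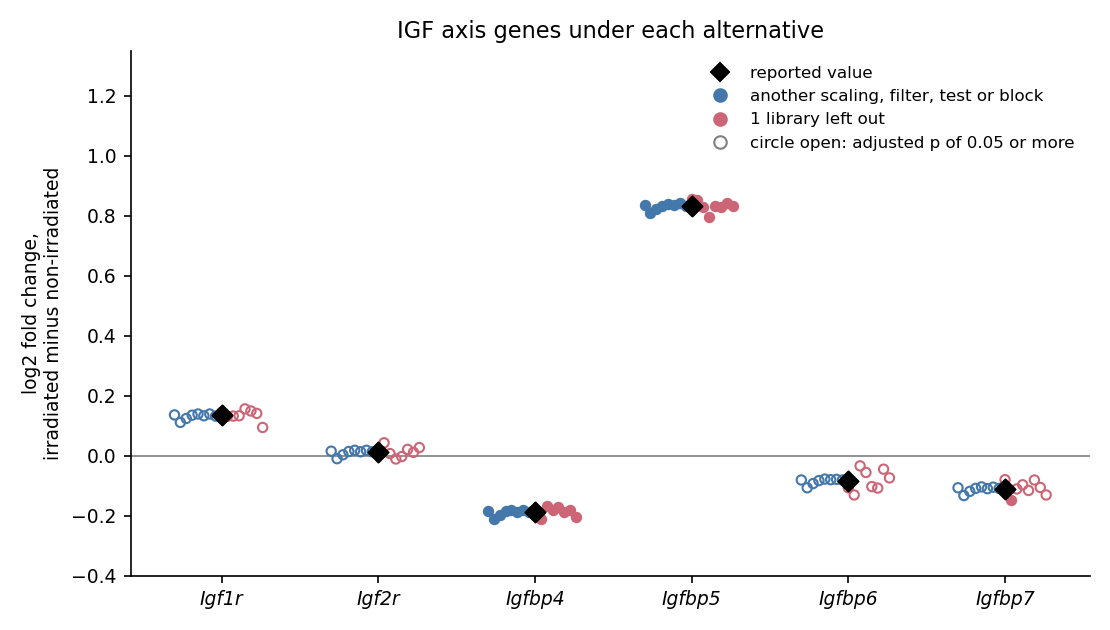
Log2 fold change of the 6 tested IGF genes as reported (diamonds), under another scaling, filter, test or block (blue) and with 1 library left out (red); filled circles passed an adjusted p under 0.05. Igfbp5 stays between 0.80 and 0.86 and Igfbp4 between -0.21 and -0.17 with every circle filled, Igfbp7 has 1 filled circle and Igf2r lies on both sides of 0.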

How the data were processed

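The deposited table holds whole-number estimated counts per gene, not normalized, from poly(A) RNA-seq of 8 libraries. HISAT2 2.2.1, StringTie 2.1.7, Trimmomatic 0.39, DESeq2 1.32.0 and FastQC 0.11.9 are listed, and build GRCm39, per the submitters' processing notes. How they were run, the annotation and the use of strand is not given in the sources used here. A fragment seems to add about 4 counts: the median variance over mean was 4.21 and 4.32 in the groups (genes of 5 to 100 counts), and the value 4 occurred 6096 times against 4006 for 3 and 2428 for 5. Counting error is then larger than Poisson. Pairs of libraries in a group differed 9.22- to 16.4-fold more than Poisson noise. Columns are numbered 5 to 8 and titles 1 to 4, so each column was matched to a group but to no single sample.

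Symbols came from GENCODE M21 (52083 of 55359 identifiers; features without one took 0.299% to 0.439% of counts). Genes were kept by filterByExpr (minimum count 10), scaled by TMM and fitted on all 8 libraries by the edgeR 4.0.16 quasi-likelihood test in R 4.3.3 (robust, group as the only term), with Benjamini-Hochberg adjustment over 15164 genes and a threshold of 0.05. The standard error is the log2 fold change divided by the square root of F, and 95% intervals use the fit's degrees of freedom. Transcript lengths came from GENCODE M21, and promoters and gene neighbours from RefSeq GRCm38.p6, where all 10 members matched. Alternatives were DESeq2 1.42.0, limma-voom (limma 3.58.1), other scalings and filters, counts divided by 4, a replicate block and leaving out each library.

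The members and lists were chosen with earlier results of these data known. All 10 members were named, and from each list the called genes of largest change (at most 4), or, with none called, the 2 of lowest p. Likeness was computed for the 3 members with the lowest p, on log2 of CPM plus 0.1, leaving out predicted-gene names.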

Additional observations from a re-analysis of the deposited data

Results flagged for a closer look

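A single library stood apart from the other 3 of its group in 6 of the 58 groups of 4 examined, where chance gives about 1 in 20. Among the IGF genes this was Igf1r in C5, at 35.7 CPM against 35.1 to 35.2 in the other non-irradiated libraries. That gap is smaller than counting error at the 1660 Igf1r counts of C5, so it does not mark C5 as an unusual library. Cbl was at 92.4 CPM in C6 against 72.8 to 75.8, and Phlpp1 at 70.5 CPM in C7 against 75.9 to 76.7. Among irradiated libraries Mtor was at 110.0 CPM in L8 against 124 to 126, and Socs3 at 166 CPM in L7 against 158 to 159. Vwf was at 0.0627 CPM in L5 against 0.462 to 0.522. That Vwf value is 3 counts, which is no more than a count of 0 allows.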

How the results depend on the processing

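Igfbp5 and Igfbp4 kept their calls under all 16 alternatives (edgeR, DESeq2 or limma-voom adjusted p up to 3.56e-05 and 0.00326). Of the IGF genes 1 was lower in the reported fit and 1 to 2 with a library left out, the second being Igfbp7 without C6, whose log2 fold change ran from -0.147 to -0.08 over the libraries left out. Igf2r, not called anywhere, changed sign with library totals alone (-0.01), without C8 (-0.011) and without L5 (-0.003), in a range of -0.011 to 0.043. With the median transcript length the non-irradiated and irradiated levels were 17.7 and 19.4 CPM per kb for Igf1r, 185.7 and 187.4 for Igf2r, 820.4 and 720.6 for Igfbp4 and 2.43 and 4.33 for Igfbp5. The 24 called pathway genes kept their side of the threshold in 329 of 384 alternative fits and lost it in 55, with no change of sign. Library numbers gave no sign of pairing: same-numbered libraries had correlations of deviations from -0.034 to 0. Differently numbered libraries gave -0.017 to 0.034. Values this close to 0 cannot show whether samples were paired. With the replicate block 1006 genes were higher and 751 lower, Igfbp5 and Igfbp4 stayed called, and Stat5a (adjusted p = 0.0729), Akt2 (0.0747), Rack1 (0.121), Rheb (0.0616) and Rps6kb1 (0.0674) were lost, which left 1 PI3K-AKT-mTOR gene lower and 0 growth hormone genes. Depth limits Igf1, Igf2, Igfbp2 and Igfbp3, which lay below the filter, and Pappa at 1.73 CPM.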

Other observations

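The spread of the IGF genes within groups rests on 4 libraries each and was not tested. The coefficient of variation of Igfbp6 was 9.45% without and 6.15% with irradiation, beside medians of 5.3% and 4.81% over 9581 genes of at least 10 CPM. Igfbp5 gave 5.72% and 1.21% and Igf1r 0.911% and 5.53%. The 1.21% of Igfbp5 and the 0.911% of Igf1r lie below what counting error alone would give at their counts. Values that low can arise when 4 libraries happen to lie close together. Deviations from the group means, over 8 libraries that share their scaling, ran opposite in Igf2r and Igfbp4 (Pearson r = -0.85) and together in Igf2r and Igfbp5 (0.68) and in Igf1r and Igfbp4 (0.56). The other pairs lay between -0.58 (Igf2r and Igfbp7) and 0.53 (Igfbp4 and Igfbp6). The pairs named first are the extremes of each sign over only 8 libraries, and no correlation was tested. The coding neighbours of Igfbp4 on chromosome 11 are Top2a, a topoisomerase gene at 608 ± 15.5 CPM without and 574 ± 12.1 CPM with irradiation (edgeR adjusted p = 0.0568), and Tns4, at 0.249 ± 0.193 and 0.276 ± 0.227 CPM.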
